A study of Mus musculus with 400 samples.

Results

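Immediate early genes are the first to be transcribed when a cell meets a growth factor or a stress, because the proteins that switch them on are already in place. The list described here held 10 such genes, named by symbol: Fos, Fosb, Jun, Junb, Egr1, Atf3, Zfp36, Ier2, Dusp1 and Klf6. All 10 had a row among the 33496 genes of the table. They were described over the cells with at least 10000 counts in total, which were 380 of 400 cells.

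The cells were single Lgr5-high cells of the small intestinal epithelium of mice with the genotype Lgr5 GFP/+, in which 1 Lgr5 allele carries the reporter Lgr5::EGFP-IRES-Cre-ERT2. Lgr5 encodes a Wnt-potentiating receptor found on stem cells at the crypt base. Crypts of the duodenum and jejunum of age- and sex-matched mice were released with EDTA, dispersed with dispase at 37 °C for 20 min, cleared of dead cells with DAPI in a flow sorter, and captured on a C1 chip for SMARTer cDNA synthesis. The protocols, written for the whole study, also name Cyp1a1::H2B-YFP mice and a Tamoxifen dose for lineage tracing, and no label ties these to the cells described here. Titles give a number from 1 to 10, called the library set here, and the same 40 barcode numbers recur in every set. No label names an animal, there is no control group, and cells are not replicates. All cells therefore form 1 sample, no test was made, and each SD is taken across library sets. No label says what a set stands for.

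AP-1 is a dimer of a Fos family protein with a Jun family protein, or of Jun family proteins with each other, and it binds DNA through basic leucine zipper domains. Growth factors and stress act on these genes through MAP kinases, and several of the encoded proteins then shut the response down again. As background, many of these genes are also known to be induced while tissue is dissociated with enzymes at body temperature. The table holds no cells prepared another way to set beside these.

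Promoters are shown for the 4 genes that went most closely with the rest of the list among those with a RefSeq promoter entry (Fos, Junb, Fosb and Atf3) and for the gene that went least closely with it (Klf6), so that their letters can be read beside the correlations. Each window runs from 250 bases before to 50 bases after the RefSeq start, 5′ to 3′ on the strand of the gene, in build GRCm38.p6. The windows are chr12:85473640-85473939 (plus strand) for Fos, chr8:84978699-84978998 (minus strand) for Junb, chr7:19309996-19310295 (minus strand) for Fosb, chr1:191183284-191183583 (minus strand) for Atf3 and chr13:5861239-5861538 (plus strand) for Klf6. The RefSeq start of Atf3 used here lies inside the annotated gene, not at its outer end. That of Junb lies outside the annotated gene, upstream of its outer end at 84978718. Capitals mark the short cyclic AMP response element TGACG on either strand, the letters TATAAA and the EGR motif GCGGGGGCG.
Fos: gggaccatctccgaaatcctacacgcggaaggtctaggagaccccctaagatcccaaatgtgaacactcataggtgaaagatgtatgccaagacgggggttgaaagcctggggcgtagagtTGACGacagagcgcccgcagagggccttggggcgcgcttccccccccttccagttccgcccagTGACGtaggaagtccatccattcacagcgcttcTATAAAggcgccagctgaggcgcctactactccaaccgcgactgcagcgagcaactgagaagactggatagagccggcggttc
Junb: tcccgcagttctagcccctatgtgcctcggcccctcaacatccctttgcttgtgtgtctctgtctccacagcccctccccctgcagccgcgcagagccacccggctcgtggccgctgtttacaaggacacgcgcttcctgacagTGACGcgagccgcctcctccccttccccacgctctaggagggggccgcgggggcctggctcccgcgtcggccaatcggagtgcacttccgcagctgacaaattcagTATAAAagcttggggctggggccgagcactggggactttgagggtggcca
Fosb: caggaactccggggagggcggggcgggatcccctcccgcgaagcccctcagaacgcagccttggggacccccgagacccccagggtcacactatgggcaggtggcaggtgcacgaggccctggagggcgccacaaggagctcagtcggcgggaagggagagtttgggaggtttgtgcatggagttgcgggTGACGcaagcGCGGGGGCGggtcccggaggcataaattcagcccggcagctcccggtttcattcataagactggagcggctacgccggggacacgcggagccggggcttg
Atf3: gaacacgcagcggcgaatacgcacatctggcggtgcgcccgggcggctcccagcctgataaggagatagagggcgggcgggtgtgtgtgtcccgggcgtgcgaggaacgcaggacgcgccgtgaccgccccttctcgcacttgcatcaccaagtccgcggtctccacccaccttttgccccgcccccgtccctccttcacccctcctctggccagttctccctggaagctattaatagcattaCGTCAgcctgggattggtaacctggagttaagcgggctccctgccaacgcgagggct
Klf6: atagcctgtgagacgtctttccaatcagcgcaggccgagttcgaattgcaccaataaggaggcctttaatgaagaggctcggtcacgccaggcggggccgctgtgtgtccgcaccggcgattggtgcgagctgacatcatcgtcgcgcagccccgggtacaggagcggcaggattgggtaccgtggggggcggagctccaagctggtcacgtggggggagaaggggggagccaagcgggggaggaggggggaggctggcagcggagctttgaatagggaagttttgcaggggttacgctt
RefSeq promoter windows were matched for 8 of the 10 genes, all but Egr1 and Ier2, and all motifs were read on both strands. The short element TGACG was in 5 of these 8 windows (Atf3, Dusp1, Fos, Fosb and Junb), against 20.8% of all 32851 windows of the same length. The full element TGACGTCA, which contains it, was in 1 of 8 (Dusp1), against 1.79% of all windows. The EGR motif was in 2 of 8 (Fosb and Zfp36), against 2.91%. TATAAA was in 2 of 8 (Fos and Junb), against 13.6%. It began 33 bases before the RefSeq start in Fos and at the RefSeq start in Junb. The RefSeq start of Junb lies upstream of the annotated gene, so this TATAAA does too. The CArG box, the motif of serum response factor, was in 1 of 8 (Zfp36), against 1.63%. The AP-1 motif TGANTCA was in 0 of 8, against 7.81%. The window of Klf6 held none of these motifs. A match describes letters only. Motifs farther than 250 bases before the start were not read, so a gene without a match may still have one there.

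Transcripts of all 10 genes were found in most Lgr5-high cells. Every listed gene had a count in 150 of the 380 cells (39.5%), at least 7 of the 10 genes had one in 95.8%, and no cell had fewer than 5. Cell totals lay between 10766 and 70133 counts (median 32112), and the median cell had 8616 genes with a count. No gene exceeded 36 counts in any cell, so ratios of abundant genes may be compressed. How counts were limited is not given. Lgr5 had a count in 97.9% of the cells and Epcam, an epithelial adhesion gene, in 100%. Markers of other cell types were also seen: the Paneth cell defensin gene Defa24 in 100% of cells, the goblet cell gene Tff3 in 84.2%, the endothelial gene Pecam1 in 44.5%, the leukocyte gene Ptprc in 28.4% and the collagen gene Col1a1 in 2.89%. A share of cells with a count is therefore not by itself a share of cells that express a gene. Intervals given with shares are exact 95% binomial (Clopper-Pearson) intervals and cover counting error only.

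Among the AP-1 subunits, Fos and Jun were the most evenly present. Fos (ENSMUSG00000021250.13, chromosome 12, 85473890 to 85477273, plus strand, GRCm38 as for all positions) had a count in 99.7% of cells (98.5 to 100), with 0 counts in the lowest cell, 11 in the median cell and 25 in the highest, and a mean of 346.1 CPM (counts scaled to 1000000 per cell). Jun (ENSMUSG00000052684.4, chromosome 4, 95049034 to 95052222, minus strand) had a count in 99.5% of cells (98.1 to 99.9), with 0 counts in the lowest cell, 9 in the median cell and 21 in the highest, and a mean of 277.6 CPM. Fosb and Junb, whose proteins can take the place of Fos and Jun in the dimer, had no count in more cells. Fosb (ENSMUSG00000003545.2, chromosome 7, 19302696 to 19310051, minus strand) had a count in 86.3% of cells (82.4 to 89.6), with 0 counts in the lowest cell, 3 in the median cell and 17 in the highest, and a mean of 133.7 CPM. Junb (ENSMUSG00000052837.5, chromosome 8, 84974484 to 84978718, minus strand) had a count in 87.1% of cells (83.3 to 90.3), with 0 counts in the lowest cell, 3 in the median cell and 17 in the highest, and a mean of 124.7 CPM. Atf3 encodes a stress-induced zipper protein that can pair with Jun proteins. Atf3 (ENSMUSG00000026628.13, chromosome 1, 191170296 to 191218039, minus strand) had a count in 90.8% of cells (87.4 to 93.5), with 0 counts in the lowest cell, 4 in the median cell and 22 in the highest, and a mean of 156.7 CPM. Per kilobase of exon, the mean level was 147.2 CPM for Fos, 87.05 for Jun, 72.8 for Atf3, 54.2 for Junb and 21.4 for Fosb. Exon lengths here join all annotated transcripts of a gene. Whether counts rise with exon length is not known here, so any order per kilobase is uncertain.

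Of the other nuclear proteins of the list, Ier2 was seen in every cell. Ier2 (ENSMUSG00000053560.4, chromosome 8, 84661331 to 84662852, minus strand) had a count in 100% of cells (99.03 to 100), with 1 count in the lowest cell, 9 in the median cell and 22 in the highest, and a mean of 295.7 CPM. Egr1 (ENSMUSG00000038418.7, chromosome 18, 34859823 to 34864984, plus strand), which encodes a zinc finger factor induced through ERK kinases, had a count in 97.4% of cells (95.2 to 98.7), with 0 counts in the lowest cell, 6 in the median cell and 22 in the highest, and a mean of 223.03 CPM. Klf6 (ENSMUSG00000000078.6, chromosome 13, 5861482 to 5870394, plus strand), which encodes a Krüppel-like factor, had a count in 76.8% of cells (72.3 to 80.99), with 0 counts in the lowest cell, 2 in the median cell and 17 in the highest, and a mean of 93.2 CPM. By mean CPM and share of cells, the genes that damp the response were, with Klf6, the scarcest of the list. Zfp36 (ENSMUSG00000044786.5, chromosome 7, 28376784 to 28380253, minus strand), whose product tristetraprolin speeds the decay of AU-rich mRNAs, had a count in 81.6% of cells (77.3 to 85.3), with 0 counts in the lowest cell, 3 in the median cell and 16 in the highest, and a mean of 120.6 CPM. Dusp1 (ENSMUSG00000024190.6, chromosome 17, 26505590 to 26562128, minus strand), whose product removes phosphate from MAP kinases, had a count in 73.2% of cells (68.4 to 77.5), with 0 counts in the lowest cell, 2 in the median cell and 14 in the highest, and a mean of 90.2 CPM. Per kilobase of exon, Ier2 had the highest mean level of the list at 194.3 CPM, Egr1 had 49.7, Zfp36 34.7, Dusp1 27.2 and Klf6, the lowest, 21.2. By this measure Fosb, at 21.4 CPM, lay below Zfp36 and Dusp1. The same uncertainty about exon length applies to this order.

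At an equal depth of 19169 counts, which 38 of the kept cells did not reach, the expected share of cells with a count was 99.3% for Fos, 98.9% for Ier2, 97.8% for Jun and 94.3% for Egr1. It was 84% for Atf3, 79.6% for Junb, 78.6% for Fosb, 76.4% for Zfp36, 67.2% for Klf6 and 62.9% for Dusp1. The scarcer genes also varied more between cells. The coefficient of variation of CPM over cells was 42.5% for Fos and 43.4% for Ier2, and 104.5% for Klf6 and 113.9% for Dusp1, and fewer counts by themselves give a larger one. Exons of Jun, Junb, Zfp36 and Dusp1 overlap those of a gene on the opposite strand (Junos, Prdx2, Gm44710 and Ergic1). Since it is not known here whether reads were counted by strand, the levels of these 4 genes are uncertain.

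**Figure D1:**
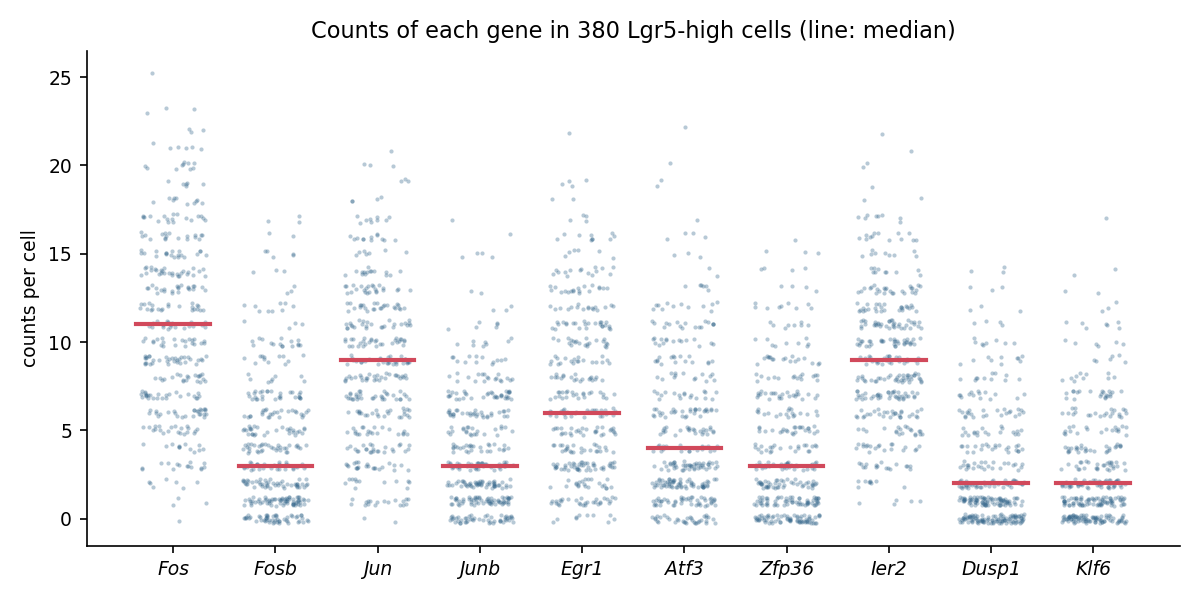
Counts per cell (vertical axis) of the 10 listed genes (horizontal axis) in 380 Lgr5-high cells, each point a cell and the line the median. Medians run from 2 counts for Dusp1 and Klf6 to 11 for Fos.

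Mean levels by library set spread most, relative to their mean, for Atf3 and Dusp1. Atf3 averaged 69.01, 178.9, 140.4, 242.7, 192.2, 158.1, 109.7, 156.5, 147.5 and 169.8 CPM in sets 1 to 10, which is 156.5 ± 46.6 CPM (mean and SD of 10 sets). Set 1 was the lowest and set 4 the highest, 3.52 times as high. In set 1, 23 of 38 cells, or 60.5% (43.4 to 75.96), had an Atf3 count, while shares in the other sets lay between 88.9% and 100%. The median cell total of set 1, 32488 counts, lay within the range of the sets (29070 to 37769).

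Dusp1 averaged 108.5, 98.4, 91.98, 141.01, 88.5, 66.05, 92.04, 43.7, 90.9 and 77.2 CPM in sets 1 to 10, or 89.8 ± 25.6 CPM. Set 8 was the lowest and set 4 the highest, 3.23 times as high. Klf6 averaged 86.2, 101.5, 88.5, 108.3, 116.7, 86.9, 90.5, 93.8, 106.4 and 51.9 CPM in sets 1 to 10, or 93.1 ± 17.8 CPM. Set 10 stood below the other sets for Klf6, with a count in 21 of 37 cells.

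The set means of the remaining genes spread less. Fos had 346.2 ± 49.6 CPM, from 252.6 CPM in set 1 to 415 CPM in set 8. Jun had 278.2 ± 38.03 CPM, from 220.4 CPM in set 3 to 362.1 CPM in set 8. Ier2 had 295.9 ± 37.1 CPM, from 240.6 CPM in set 7 to 355.4 CPM in set 6. These 3 abundant genes thus varied by less than 1.7 times between sets. Fosb had 133.7 ± 24.04 CPM, from 97.5 CPM in set 1 to 172.5 CPM in set 4. Junb had 124.8 ± 21.7 CPM, from 97.6 CPM in set 1 to 169.7 CPM in set 6. Zfp36 had 120.4 ± 16.8 CPM, from 91.9 CPM in set 10 to 148.5 CPM in set 5. Egr1 had the smallest spread of set means relative to its mean, with 222.8 ± 20.6 CPM, from 182.9 CPM in set 1 to 246.3 CPM in set 3.

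Some sets were low or high for most of the list. Set 1 held the lowest mean of 5 of the 10 genes (Fos, Fosb, Junb, Egr1 and Atf3) and lay below the mean of the sets for 9, the exception being Dusp1. Sets 4 and 8 each lay above it for 9 of the 10 genes. Summed over the list, the mean level was 1534 CPM in set 1 and 2172 CPM in set 4, with 1861 ± 206.4 CPM over the sets. Set 4 also had the lowest median number of genes with a count, 8154, and the part of this in its level was not tested.

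Part of this spread comes from sampling 36 to 39 cells per set. The SD of a set mean expected from the spread of cells within sets alone was 19.7 CPM for Atf3 and 22.96 CPM for Fos, and the SD over sets was 2.37 and 2.16 times as large. This ratio was 1.83 for Ier2, 1.65 for Jun, 1.57 for Dusp1, 1.29 for Junb, 1.22 for Fosb and 1.13 for Klf6. For Egr1 (0.970) and Zfp36 (0.951) the sets spread no more than the cells within them give. The median ratio was 1.43 for the listed genes and 1.32 for the 12256 genes detected in at least 25% of cells. The ratio of Atf3 lay above 99.2% and that of Fos above 98.1% of those genes.

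A spread index was computed per gene from its counts summed by set, as the squared departure from the count expected at the depth of the set, over that expected count, summed over sets and divided by sets minus 1. It is near 1 only if counting error is all there is. Counts of single cells already varied by more than that, with a variance of counts over cells of 1.75 (Ier2) to 3.68 (Dusp1) times the mean, so an index above 1 does not by itself show that sets differ. The index was above 2 for 10 of 10 listed genes and for 86.4% of those 12256 genes (83.8% of the 4416 detected in at least 70%), so this count is no result about the list. The median index was 4.66 for the listed genes and 4.203 for those 12256 genes.

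Atf3 stood at the upper end of that range, with an index of 15.8, above 99.3% of genes. It was 9.36 without set 1. Dusp1 had 8.26, above 89.8% of genes, and 4.93 without set 4. Fos had 7.85, above 87.8% of genes. Egr1 (3.15) and Zfp36 (2.84) lay above 32.7% and 27.4% of genes. Single sets decided 3 further values: the index of Egr1 was 1.97 without set 1, against 3.15 with it, that of Jun was 1.84 without set 8, against 4.57 with it, and that of Klf6 was 1.47 without set 10, against 4.16 with it.

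**Figure D2:**
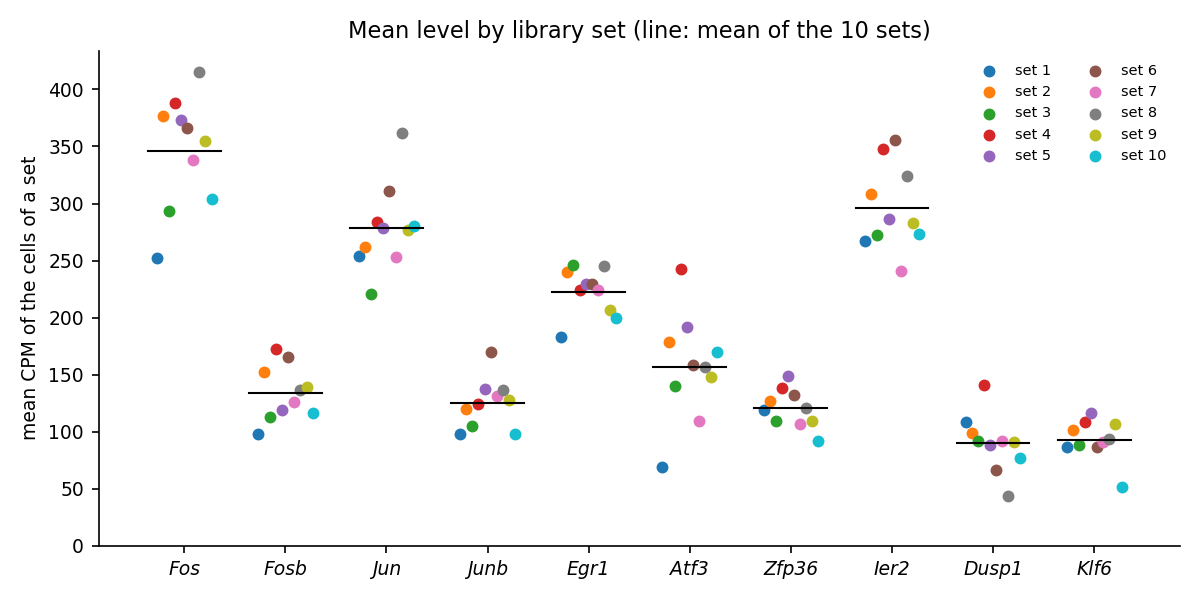
Mean CPM of the 10 listed genes in each of the 10 library sets, each point a set of 36 to 39 cells. Atf3 is lowest in set 1 at 69.01 CPM, and Klf6 in set 10 at 51.9 CPM.

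The listed genes varied together from cell to cell, weakly in single pairs and more clearly against the sum of the list. Spearman's rho was taken over the cells thinned to 19169 counts, as the mean of 20 random thinnings. It describes cells of 1 sample, which share libraries, and has no p-value. All 45 pairs had a rho above 0, with a median of 0.16, a lowest value of 0.01 (Jun and Dusp1) and a highest of 0.29 (Fos and Junb). Of these pairs, 14 reached 0.2. Egr1 was in several of the higher ones, with 0.27 for Fosb, 0.27 for Junb, 0.26 for Fos and 0.25 for Atf3. Klf6 was in the lower ones, with 0.05 for Ier2 and 0.06 for Fosb. Single pairs this weak in sparse counts are not findings. Pairs of other genes were not counted in the same way, so the 45 above 0 and the 14 at 0.2 have no background here.

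**Figure D3:**
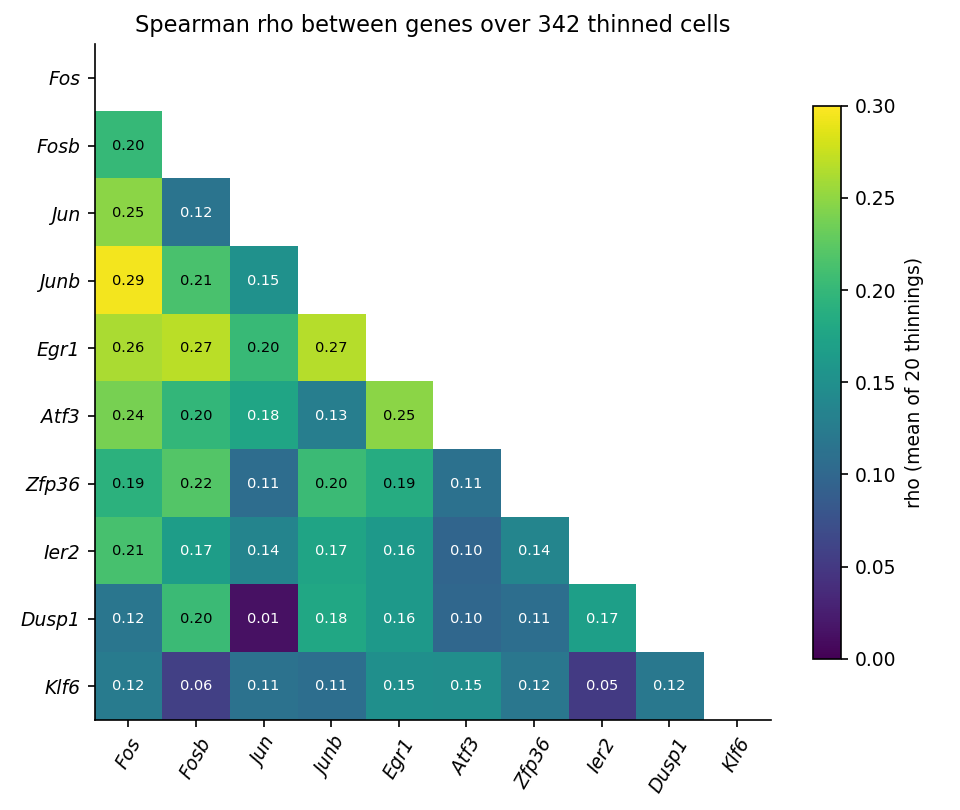
Spearman's rho of each of the 45 pairs of listed genes over cells thinned to one depth, as the mean of 20 thinnings. All values lie between 0.01 (Jun and Dusp1) and 0.29 (Fos and Junb).

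Against the summed counts of the other 9 genes, rho was 0.42 for Fos, 0.41 for Egr1, 0.37 for Junb, 0.35 for Fosb and 0.32 for Atf3. It was 0.30 for Zfp36, 0.29 for Ier2, 0.29 for Jun, 0.24 for Dusp1 and 0.20 for Klf6. All 10 values were at least 0.2, a limit set after a first look at these data. Klf6, at 0.203, only just met it. Of the 12246 other genes set against the sum of the list, 0.531% did. These other genes were not matched to the list in level, and across them rho rose with mean CPM (Spearman's rho 0.40). Their share is therefore not a matched background. The median rho was 0.31 for the listed genes, and −0.0014 for the other genes, which ranged from −0.29 to 0.32. Within single library sets, rho was above 0 in 10 of 10 sets for 9 of the genes and in 9 of 10 for Fosb. With all kept cells thinned to 10000 counts, 7 of the 10 genes reached 0.2.

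**Figure D4:**
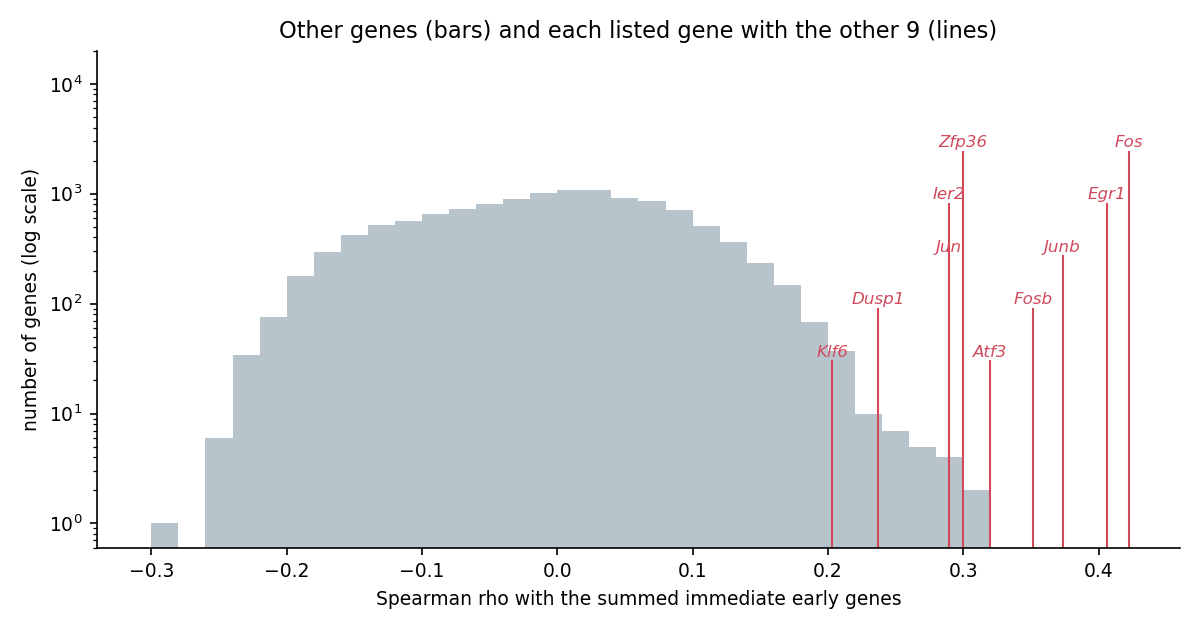
Number of other genes (bars, log scale) by Spearman's rho with the summed counts of the listed genes over thinned cells; lines mark each listed gene against the other 9. The lines run from 0.20 for Klf6 to 0.42 for Fos, and the highest other gene is at 0.32.

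Cells with more of these transcripts had somewhat fewer genes detected. The summed level of the list was 434 CPM in the lowest cell, 1844 CPM in the median cell and 4142 CPM in the highest. Over the 380 cells its rho was −0.22 with the number of genes detected, −0.06 with total counts and 0.07 with the mitochondrial share. With ranks adjusted for the number of genes detected, 9 of the 10 listed genes reached 0.2, and the median of the listed genes was 0.32. Klf6 then had 0.199. Of the other genes, again not matched in level, 0.163% reached 0.2. Across the 12203 other genes with an annotated length, rho with the list ran against gene span (Spearman's rho across genes −0.64) and exonic length (−0.35), and with mean CPM (0.40), genes not being independent replicates. Of the listed genes, 8 span fewer than 10000 bases, Atf3 and Dusp1 being the exceptions at 47744 and 56539 bases. The part of gene span in the correlations was not tested.

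Outside the list, the genes that followed its sum most closely were Edn1, the endothelin gene (rho 0.32), Dnajb1, a heat shock co-chaperone gene (0.31), Nr1d1, a circadian repressor gene (0.30), and Jund, an AP-1 subunit gene (0.29). They were followed by the Notch target gene Hes1 (0.29), the antiproliferative gene Btg2 (0.28), the BMP target gene Id3 (0.28), the matricellular gene Ccn1 (0.28) and Areg, which encodes a ligand of the EGF receptor (0.27). Each had the same sign in at least 9 of 10 sets, and they span 1668 (Jund) to 8834 (Areg) bases. At the other end were Zmat4 (−0.29), Pacs1 (−0.26), Gpr158 (−0.26), Phyhipl (−0.25) and Hecw1 (−0.25), which span 98284 (Phyhipl) to 520567 (Zmat4) bases.

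For 8 of the 10 listed genes, the most similar of 12255 genes was another listed gene. Fos and Junb were each other's (0.29), as were Fosb and Egr1 (0.27). Jun was most like Fos (0.25), Atf3 most like Egr1 (0.25), and Zfp36 (0.22) and Dusp1 (0.20) most like Fosb. Ier2 was most like the polyubiquitin gene Ubb (0.23), and Klf6 most like Romo1, a mitochondrial membrane protein gene (0.19).

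Other genes of the pathway followed the list to different degrees. Of all other genes, 49.4% had a rho above 0 with its sum. Of 22 measured further immediate early genes, 21 had a rho above 0 and 6 reached 0.2, with a median of 0.12. Btg2 (0.28) and the pseudokinase gene Trib1 (0.24) were the highest, and Ier5 (0.02) and the kinase gene Sgk1 (−0.07) the lowest. Of 8 other measured AP-1 subunits, 5 lay above 0 and 1 reached 0.2, with a median of 0.05. Jund (0.29) and Fosl1 (0.11) were the highest, and Atf2 (−0.04) and Atf7 (−0.07) the lowest. Of 18 measured upstream kinases and factors, 8 lay above 0 and 0 reached 0.2, with a median of −0.01. Srf, the serum response factor gene (0.14), and Elk4, which encodes a partner of it (0.13), were the highest, and Rps6ka3 (−0.10) and Elk3 (−0.14) the lowest. All 11 measured heat shock genes lay above 0 and 3 reached 0.2, with a median of 0.13. Dnajb1 (0.31) and Dnaja1 (0.22) were the highest, and Hspe1 (0.10) and Hsph1 (0.05) the lowest. The 5 epithelial markers had the same median, 0.13, and 5 of 5 lay above 0. With ranks adjusted for the number of genes detected, the median was 0.06 for the heat shock genes, 0.06 for the epithelial markers and 0.11 for the further immediate early genes. Of the heat shock genes, 2 then reached 0.2 (Dnajb1 and Hspa1a), and Dnaja1 had 0.16.

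By their medians, stem cell and cell cycle genes lay near the background. The median rho was 0.04 for 16 stem cell genes, with Gkn3 (0.13) and Slc12a2 (0.11) the highest and Tnfrsf19 (−0.15) and Lgr5 (−0.16) the lowest. It was 0.02 for 18 S phase genes and 0.05 for 20 G2 and M phase genes, and 0 of these 3 lists' genes reached 0.2. Above 0 lay 10 of 16 stem cell genes, 14 of 18 S phase genes and 18 of 20 G2 and M phase genes. The share of all other genes above 0 was 49.4%. With ranks adjusted for the number of genes detected, the 3 medians were 0.00, 0.01 and 0.03. Summed markers of cell types ran with or against the list, most for epithelial, stromal and endothelial ones. At full depth, the summed CPM of 5 epithelial markers had a rho of 0.30 with the summed CPM of the listed genes. Summed in the same way, the further immediate early genes had 0.51 and the heat shock genes 0.39. The G2 and M phase genes had 0.13, the S phase genes 0.07 and the stem cell genes 0.06. A rho between 2 sums is not comparable with the median of 0.31 for single listed genes over thinned cells. The same value was −0.03 for Paneth, −0.02 for goblet, 0.02 for enterocyte, −0.07 for enteroendocrine and −0.15 for tuft markers. It was −0.10 for immune, −0.19 for endothelial and −0.21 for stromal markers. Their part in the correlations was not tested.

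The size of the covariation was read from cells split into terciles of Fos CPM. The upper tercile (33.2% of cells) averaged 511 CPM of Fos, against 188.3 CPM in the lower tercile (33.4%). All 9 other listed genes were higher in the upper tercile, with a median log2 ratio of 0.66 (SD of the set medians 0.25, above 0 in 10 of 10 sets), against 0.00 for other genes and 0.12 for those detected in at least 70% of cells.

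From the lower through the middle to the upper tercile, Junb averaged 81.4, 133.5 and 159.5 CPM, with a log2 ratio of upper over lower of 0.96 (SD over sets 0.50, above 0 in 10 of 10 sets). Atf3 averaged 112.6, 160.98 and 196.8 CPM (0.80, SD 0.53, 8 of 10 sets). Egr1 averaged 167.5, 235.96 and 265.96 CPM (0.66, SD 0.44, 10 of 10 sets). Klf6 averaged 70.1, 102.7 and 107.1 CPM (0.60, SD 0.53, 9 of 10 sets). Jun averaged 232.7, 272.6 and 327.8 CPM (0.49, SD 0.39, 9 of 10 sets). Ier2 averaged 258.9, 292.3 and 336.3 CPM (0.38, SD 0.22, 10 of 10 sets). For these 6 of the 9 genes the ratio over all cells was larger than its SD over sets, and for the remaining 3 it was not. Averaged over single sets, the ratio was larger than that SD for Zfp36 (0.94) and Dusp1 (0.90) as well. Zfp36 averaged 82.97, 142.5 and 136.3 CPM (0.71, SD 0.91, 8 of 10 sets). Dusp1 averaged 70.3, 88.4 and 112.1 CPM (0.66, SD 0.77, 9 of 10 sets). Fosb averaged 111.04, 128.1 and 162.2 CPM (0.54, SD 0.66, 9 of 10 sets). Of the 9 genes, 8 were higher at each step, and Zfp36 was highest in the middle tercile.

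All 9 genes were at least 1.2-fold higher in the upper tercile, against 19.4% of genes detected in at least 25% of cells and 20% of those detected in at least 70%. At 1.5-fold it was 6 of 9 genes, against 3.2% and 0.997%. This count was 3 of 9 without library set 6, 3 of 9 with thinned counts and 2 of 9 with cells split at the median of Fos. Of the other immediate early genes, 20 of 22 lay above 0 with a median of 0.68. They ran from Sgk1 (−0.36) and Zfp36l2 (−0.01) to Plk2 (1.19) and Egr2 (1.41). The median of genes outside the list was 0.00, and 0.12 for those detected in at least 70% of cells. Cells of the upper tercile had a median of 8206 genes detected, against 8924 in the lower. With terciles made among cells of like numbers of genes detected, the median log2 ratio was 0.64.

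Markers of other cell types and epithelial markers also moved between these terciles, given here as summed CPM per cell with the lowest and highest cell. Endothelial markers averaged 41.1 CPM (0 to 286.8) in the upper and 86.02 CPM (0 to 651) in the lower tercile, with 2 of 2 measured genes below 0. Stromal markers averaged 14.4 CPM (0 to 381.3) in the upper and 27.4 CPM (0 to 200.4) in the lower tercile, with 0 of 5 genes detected in at least 25% of cells. Tuft markers averaged 120.5 CPM (0 to 558) in the upper and 164.6 CPM (0 to 1458) in the lower tercile, with 2 of 2 measured genes below 0. These 3 lists were lower in the upper tercile. Epithelial markers averaged 2121 CPM (1417 to 3404) in the upper and 1879 CPM (1034 to 3074) in the lower tercile, with 4 of 5 genes above 0. Paneth markers averaged 1407 CPM (396.9 to 7660) in the upper and 1259 CPM (357.8 to 6874) in the lower tercile, with 5 of 5 above 0. Immune markers averaged 92.7 CPM (0 to 1398) in the upper and 82.8 CPM (0 to 1119) in the lower tercile, although 2 of 3 measured genes lay below 0. These 3 were higher in it. Goblet markers averaged 267.5 CPM (0 to 1834) in the upper and 305.03 CPM (0 to 3548) in the lower tercile. Enterocyte markers averaged 100.98 CPM (0 to 369.04) in the upper and 129.1 CPM (0 to 2452) in the lower tercile. Enteroendocrine markers averaged 13.5 CPM (0 to 226.9) in the upper and 15.2 CPM (0 to 161.6) in the lower tercile. Of the heat shock genes, 11 of 11 lay above 0 with a median log2 ratio of 0.21, summing to 3789 CPM in the upper and 3229 CPM in the lower tercile. The median was also 0.21 for the epithelial markers, and 0.20 for the Paneth markers. Across these terciles the median of other genes was 0.00, and 0.12 for those detected in at least 70% of cells. Of the S phase genes, 14 of 18 lay above 0 with a median of 0.15. It was 16 of 20 G2 and M phase genes with a median of 0.13, and 9 of 16 stem cell genes with a median of 0.08. The part of these lists in the ratios was not tested.

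Cells with more Lgr5 had lower mean levels of most listed genes, with ratios over all cells within their SD over library sets. The upper tercile of Lgr5 averaged 342.1 CPM of Lgr5 and the lower 90.6 CPM. In the upper, 9 of 10 listed genes had a log2 ratio below 0, but Jun (−0.002) and Klf6 (−0.02) only barely. The share of other genes below 0 was not counted. The median was −0.27, against 0.00 for other genes (−0.02 for those detected in at least 70% of cells), and the medians of single sets averaged −0.20 (SD 0.20), below 0 in 8 of 10 sets. Without set 1 or without set 6, 7 of 10 genes lay below 0. Median totals were 30962 counts in the upper and 32698 counts in the lower tercile.

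From the lower through the middle to the upper tercile of Lgr5, Fosb averaged 156.4, 127.7 and 116.9 CPM, with a log2 ratio of upper over lower of −0.42 (SD over sets 0.46, below 0 in 9 of 10 sets). Zfp36 averaged 141.1, 110.9 and 109.5 CPM (−0.36, SD 0.63, 6 of 10 sets). Egr1 averaged 249.9, 215.8 and 203.2 CPM (−0.30, SD 0.37, 8 of 10 sets). Dusp1 averaged 99.4, 90.1 and 81.04 CPM (−0.29, SD 0.87, 6 of 10 sets). Atf3 averaged 167.8, 166.9 and 135.2 CPM (−0.31, SD 0.63, 7 of 10 sets). Fos averaged 370.5, 335.2 and 332.5 CPM (−0.16, SD 0.23, 8 of 10 sets). These 6 genes were lower at each step. Junb averaged 144.2, 108.7 and 121.1 CPM (−0.25, SD 0.59, 8 of 10 sets) and Klf6 87.4, 106.2 and 86.1 CPM (−0.02, SD 0.66, 6 of 10 sets). Jun averaged 276.9, 279.4 and 276.5 CPM (0.00, SD 0.23, 4 of 10 sets) and Ier2 295.6, 288.5 and 303.2 CPM (0.04, SD 0.27, 6 of 10 sets). For 0 of the 10 genes was the ratio over all cells larger than its SD over sets. Averaged over single sets, the ratio of Fosb (−0.53) was larger than that SD. The SD describes single sets of few cells and is not the error of a ratio over all cells.

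At least 1.2-fold lower levels were seen for 5 of 10 genes (Fosb, Zfp36, Atf3, Egr1 and Dusp1), against 14.5% of genes detected in at least 25% of cells and 7.7% of those detected in at least 70%. The count was 3 of 10 without library set 9 and 3 of 10 with thinned counts. At least 1.2-fold higher were 0 of 10, against 17.8% and 7.11%, and at least 1.5-fold lower 0 of 10, against 2.33% and 0.113%. Over thinned cells, rho with Lgr5 was weak, from −0.17 for Fosb and −0.14 for Egr1 to 0.00 for Jun.

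Related lists lay closer to 0 across Lgr5 terciles than the listed genes, by their medians. Of the other immediate early genes, 13 of 22 lay below 0 with a median of −0.08, from the nuclear receptor gene Nr4a1 (−0.66) and Klf10 (−0.56) to Sgk1 (0.46) and Dusp5 (0.50). Of the other AP-1 subunits, 5 of 8 lay below 0 with a median of −0.07, from Mafk (−1.12) and Mafg (−0.34) to Fosl1 (0.23) and Atf2 (0.54). Of the upstream kinases and factors, 7 of 18 lay below 0 with a median of 0.05, from Mapk8 (−0.32) to Elk4 (0.43) and Mapk9 (0.75). Of the heat shock genes, 9 of 11 lay below 0 with a median of −0.04. The lowest were Hspa1a (−0.75) and Hspa1b (−0.31), whose nearly identical sequences make their counts uncertain, and the highest Hsph1 (0.01) and Hspe1 (0.02). Of the G2 and M phase genes, 14 of 20 lay below 0 with a median of −0.16. It was 13 of 18 S phase genes with a median of −0.10, and 4 of 15 stem cell genes other than Lgr5 with a median of 0.06.

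Marker lists of other cell types moved with Lgr5 as well. Summed goblet markers averaged 261.3 CPM (0 to 3001) in the upper and 316.7 CPM (0 to 3548) in the lower tercile, with 3 of 4 measured genes at least 1.2-fold lower and a median log2 ratio of −0.30. Enterocyte markers averaged 122.5 CPM (0 to 2452) in the upper and 88.998 CPM (0 to 537) in the lower tercile, with 3 of 3 measured genes above 0. Stromal markers averaged 25.4 CPM (0 to 200.4) in the upper and 11.5 CPM (0 to 117.7) in the lower tercile. The goblet median was thus about as low as that of the listed genes. Immune markers averaged 75.7 CPM (0 to 713) in the upper and 86.6 CPM (0 to 1134) in the lower tercile. Endothelial markers averaged 59.3 CPM (0 to 392.4) in the upper and 55.3 CPM (0 to 416) in the lower tercile. Tuft markers averaged 143.5 CPM (0 to 587) in the upper and 132.7 CPM (0 to 439) in the lower tercile. These lists were closer between the terciles. Enteroendocrine markers averaged 16.3 CPM (0 to 226.9) in the upper and 11.8 CPM (0 to 214.1) in the lower tercile. Paneth markers averaged 1321 CPM (362.7 to 5314) in the upper and 1325 CPM (357.8 to 6874) in the lower tercile. Epithelial markers averaged 2010 CPM (1270 to 3404) in the upper and 2016 CPM (1088 to 3103) in the lower tercile. The part of these lists in the ratios of the listed genes was not tested.

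**Figure D5:**
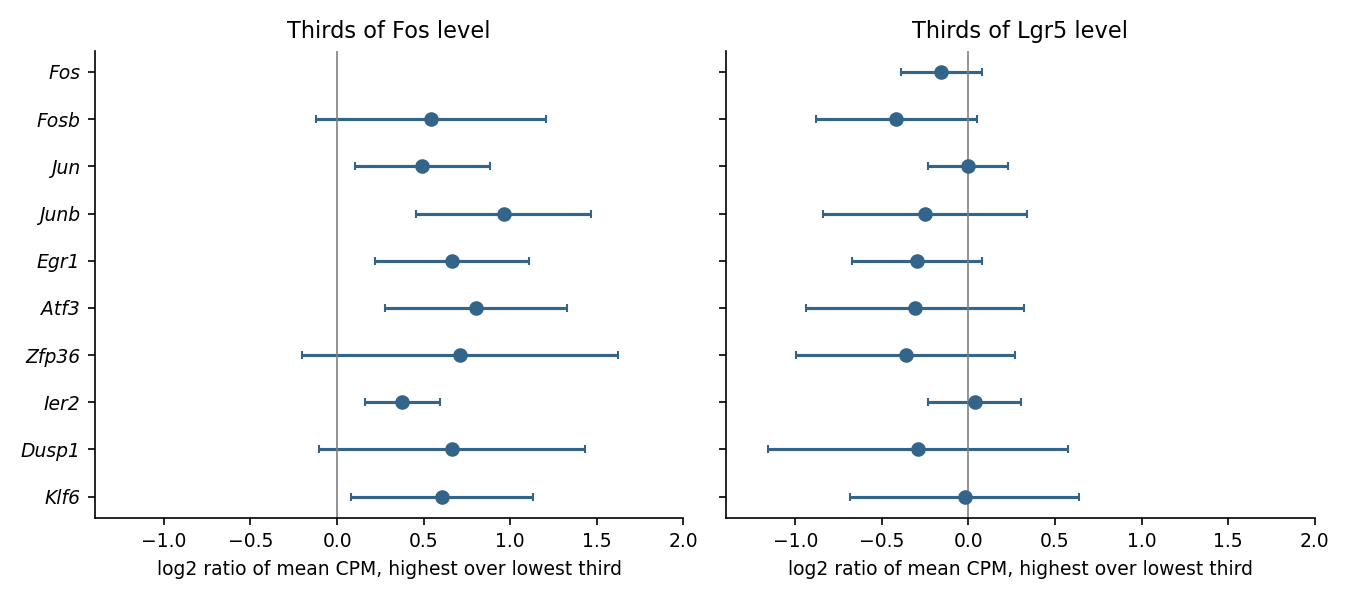
Log2 ratio of mean CPM of each listed gene, upper over lower tercile of Fos level (left) and of Lgr5 level (right); points are all cells and bars the SD over 10 library sets. All points on the left lie above 0, and on the right they run from −0.42 for Fosb to 0.04 for Ier2.

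The title of the series names Mex3a, an RNA-binding protein gene, as a mark of slowly dividing stem cells. The listed genes differed by less than the spread between sets between the 47 cells with a Mex3a count and the other kept cells, 87.6% of the total, without one. The median log2 ratio was 0.05 (SD of the medians of 9 sets 0.18), with 6 genes above 0 and 4 below. Fos averaged 365.7 CPM in cells with Mex3a and 343.3 CPM in cells without it (0.09, SD 0.25). Egr1 averaged 235.95 CPM with Mex3a and 221.2 CPM without (0.09, SD 0.27). Klf6 had the highest ratio, with 101.9 CPM with Mex3a and 92.01 CPM without (0.15, SD 0.68). Dusp1 had the lowest, with 67.8 CPM with Mex3a and 93.4 CPM without (−0.45, SD 0.81, below 0 in 7 of 9 sets). The log2 ratio was 0.06 for Junb, 0.05 for Zfp36, 0.05 for Atf3, −0.03 for Jun, −0.06 for Ier2 and −0.06 for Fosb. At least 1.2-fold lower was 1 of 10 (Dusp1), against 20.5% of genes detected in at least 25% of cells and 7.63% of those detected in at least 70%. At least 1.2-fold higher were 0 of 10, against 15% and 7.27%. For 0 of the 10 genes was the ratio larger than its SD over sets.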

How the data were processed

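Single-cell polyA RNA of 400 Lgr5-high cells was measured on C1 chips, per the labels' protocols. The authors deposited 1 table of whole-number counts per gene and cell, not normalized. The submitters' processing notes name the build GRCm38.p4. Aligner, counter, annotation, strand and molecular identifiers: not given in the sources used here. Although the protocol names spike-ins, 0 rows carry such a name. GENCODE M21 supplied symbols for 33219 of 33496 identifiers (277 had none), and positions.

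The members and the gene lists were chosen with earlier results of these data known. The limits of 1.2-fold, 1.5-fold, a rho of 0.2 and an index of 2, the 70% background, the adjustment for genes detected, the comparison of set means with the spread of cells and the split by Fos were set after a first look at these data. Cells with at least 10000 counts were kept (20 left out), and doublets were not called. CPM used all gene counts of a cell. For correlations each cell was thinned 20 times, without replacement, to 19169 counts (10th percentile of the totals). Ratios are log2 of mean CPM with a pseudocount of 1 CPM. Other genes were named by a rule: the 10 highest and 5 lowest by rho with the list among genes with one sign in at least 8 of 10 sets, the gene most like each member, and the 2 highest and 2 lowest of each gene list described. Of the genes this rule names, 2 are not reported here. Of the lists, Cyr61, Ctgf, Mkl1 and Mkl2 matched no symbol (Ccn1 is a newer name of Cyr61). Depth limits the shares, which carry exact 95% intervals. Alternatives changed the cells kept, thinning, pseudocount, filter, gates and saturation, and left out each library set. Python 3.11.15 with numpy 2.4.6, pandas 2.3.3 and scipy 1.17.1 was used, and the scripts were tested on simulated data.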

Additional observations from a re-analysis of the deposited data

Results flagged for a closer look

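The means and shares of the listed genes by library set were searched for a set far from the rest with Dixon's criterion for 10 values, which chance meets in about 1 of 20 groups. Klf6 averaged 51.9 CPM in set 10, below the other sets. Atf3 had a count in 60.5% of the cells of set 1, below the other sets. Fos had a count in 97.3% of the cells of set 8 and Jun in 94.9% of the cells of set 3, while the other 9 sets of each had 100%. These rest on 1 and 2 cells without a count. With 9 sets equal, any departure meets the criterion, so the rate of chance hits given above does not hold for them.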

How the results depend on the processing

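No paired analysis was possible because all cells form 1 group. Of 92 recomputed medians over the listed genes, 90 moved by less than the spread between library sets, or by less than 1.5 times for the spread index, and 0 called values changed sign. The median rho with the rest of the list was 0.23 with all kept cells thinned to 10000 counts, and the median spread index 2.85 with thinned counts, which by construction hold fewer counts. Leaving out each library set gave 0.30 to 0.32 for that rho, 4.55 to 5.21 for the index, and median log2 ratios of 0.57 to 0.70 across Fos terciles, −0.31 to −0.20 across Lgr5 terciles and −0.02 to 0.10 by Mex3a. The Mex3a median was −0.02 with a Mex3a count required after thinning. With no filter on low values, 23.2% of genes were at least 1.2-fold lower in the upper Lgr5 tercile. With 1 sample and no label naming an animal, none of these ranges can be read as variation between mice.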
